A study of Rattus norvegicus with 10 samples.

Results

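The genes described here are the writers, erasers and readers of DNA methylation in the hippocampus of rats with a traumatic brain injury (TBI) and of sham-operated rats. They were chosen by gene symbol from a list of 9. Of these, 6 had a row in the table of 23824 rows left after rows sharing a symbol were summed. They were the DNA methyltransferases Dnmt1, Dnmt3a and Dnmt3b and the methyl-CpG-binding domain genes Mbd1, Mbd2 and Mbd3. The erasers Tet1, Tet2 and Tet3 had no row under these symbols and were not analysed here, so 0 of the 3 erasers has a value below. The TBI rats were male Sprague Dawley rats given a fluid percussion injury, a model in which a pulse of fluid is driven against the dura. The sham rats were males of the same strain that had sham surgery. All weighed 200 to 240 g, and their age is not given in the sources used here. Learning was tested 1 week after surgery, and the hippocampus was then dissected and frozen. There were 5 TBI and 5 sham libraries of poly-A RNA. Whether a library holds 1 animal or a pool is not stated, and the p-values below rest on the spread of the libraries, which may be technical. Values are in FPKM (fragments normalised to transcript length and library), so levels of different genes can be set side by side, apart from errors that are fixed for a gene.

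Methylation of cytosine in CpG dinucleotides is copied to the new strand after replication mainly by Dnmt1, and it is placed at new sites by Dnmt3a and Dnmt3b. TET enzymes oxidize the methyl group as a first step of its removal. Methyl-CpG-binding proteins such as Mbd1 and Mbd2 bind the methylated dinucleotide and recruit repressors. Mbd3 shares the binding domain, but mammalian Mbd3 has little preference for methylated DNA. Mbd2 and Mbd3 are alternative subunits of the NuRD complex, which removes acetyl groups from histones and remodels nucleosomes. In the brain, Dnmt1 and Dnmt3a are both made in neurons that no longer divide and have been linked to memory, while Dnmt3b is known mainly from embryonic cells.

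The most abundant members were the readers Mbd3 and Mbd2, and Mbd3 is the member whose groups did not overlap. The 250 bases before the start of each are shown for this reason, from RefSeq on the GRCr8 build of the rat genome. The expression values come from the rn5 build, and no position is carried between the builds. The Mbd2 window is chr18:66449108-66449357 on the plus strand and the Mbd3 window is chr7:9963390-9963639 on the plus strand. Capitals mark each CpG.
Mbd2: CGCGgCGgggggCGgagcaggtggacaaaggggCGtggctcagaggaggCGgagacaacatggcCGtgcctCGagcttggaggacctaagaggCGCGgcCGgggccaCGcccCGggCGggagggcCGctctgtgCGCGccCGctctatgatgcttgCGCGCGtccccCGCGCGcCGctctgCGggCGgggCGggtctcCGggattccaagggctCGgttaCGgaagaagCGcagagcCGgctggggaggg
Mbd3: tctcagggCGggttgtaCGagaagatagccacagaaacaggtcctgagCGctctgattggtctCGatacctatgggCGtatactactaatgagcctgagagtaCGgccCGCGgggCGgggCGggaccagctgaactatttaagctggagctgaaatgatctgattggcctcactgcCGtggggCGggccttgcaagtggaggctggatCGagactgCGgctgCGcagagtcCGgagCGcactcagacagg
The Mbd2 window held 33 CpGs and the Mbd3 window 17, against a median of 5 over the 33469 windows of the same length in the RefSeq table. The share of windows with fewer CpGs was 96.4% for Mbd2 and 78.1% for Mbd3. Of the 6 members with a row, 5 had a window there. Those of Mbd1, Dnmt3a and Dnmt1 held 24, 18 and 9 CpGs, so all 5 lay above the median. The GC box GGGCGG, searched on both strands, was in the windows of Mbd2, Mbd3 and Dnmt3a and in 30.5% of all windows. Each GC box itself contains a CpG, so these counts overlap. These letters describe the windows and say nothing about methylation, which these data do not measure.

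The marker lists showed brain tissue that contained hippocampal neurons, with variable amounts of choroid plexus and meninges. The synaptic gene Snap25 was at 843 to 1381 FPKM in TBI and 1177 to 1474 in sham, and Wfs1, a marker of CA1 pyramidal neurons, at 64.0 to 161 and 70.1 to 265. Ttr encodes transthyretin, a defining product of choroid plexus, and was at 72.7 to 32233 FPKM in TBI and 34.5 to 31400 FPKM in sham. The summed level of 5 choroid plexus markers was 74.99 to 32620 FPKM in TBI and 36.0 to 31630 FPKM in sham. That of 6 meninges and matrix markers was 127 FPKM in TBI 1 and 29.4 to 42.9 in the other TBI libraries, against 111 in sham 4, 87.9 in sham 2 and 24.3 to 38.3 in the other sham libraries. Among these 6, Dcn had the highest mean and Col1a2 was listed at 0 in all 10 libraries. The summed level of 5 cycling-cell markers was 3.35 to 5.32 FPKM in TBI and 3.20 to 3.92 in sham, with Mcm2 the highest of them. The highest markers of the other cell types were Slc1a2 for astrocytes, Csf1r for microglia, Mbp for oligodendrocytes, Olig1 for their precursors, Foxj1 for ependyma, Hbb-b1 for blood and Cldn5 for endothelium. The 75th percentile of FPKM was 13.1 to 13.5 in the 10 libraries, and the number of fragments behind the values is unknown.

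Among the writers, the maintenance methyltransferase Dnmt1 and the de novo methyltransferase Dnmt3a were present at similar levels near the middle of the named rows (above 52.4% and 49.9% of them in mean), and neither differed between injured and sham hippocampus beyond the spread between libraries. Dnmt1 was at 5.59, 5.97, 6.22, 5.58 and 5.60 FPKM in TBI 1 to 5, against 5.33, 4.65, 5.64, 6.19 and 5.16 FPKM in sham 1 to 5. All 5 TBI libraries lay above the sham mean, but sham 3 lay above 3 of them and sham 4 above 4, so the groups overlapped. Dnmt1 averaged 5.79 ± 0.293 FPKM in TBI and 5.39 ± 0.572 FPKM in sham (SD, n = 5 each). Its log2 difference, taken on FPKM + 0.5 as TBI minus sham, was 0.10 (SE 0.089, 95% interval -0.098 to 0.30), with an adjusted p of 0.983 in limma's test over all 16194 rows.

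Dnmt3a was at 4.72, 4.63, 4.97, 4.52 and 4.63 FPKM in TBI 1 to 5, against 4.61, 4.997, 4.82, 5.28 and 4.81 FPKM in sham 1 to 5. TBI 3 lay above the sham mean and the other TBI libraries below it, and the groups overlapped. The means were 4.70 ± 0.168 FPKM in TBI and 4.91 ± 0.251 FPKM in sham (SD, n = 5 each). Its log2 difference was -0.056 (SE 0.076, 95% interval -0.22 to 0.11), with an adjusted p of 0.983 in limma's test. Dnmt3a was among the least variable rows of the table: its coefficient of variation over the 10 libraries was 4.79%, and 0.790% of the rows tested had a smaller one. That of Dnmt1 was 8.55%, against a median of 17.6% over the rows tested.

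Dnmt3b, the second de novo methyltransferase, was barely detected, with a mean above that of only 26.4% of the named rows. It was at 0.161, 0.239, 0.1004, 0.205 and 0.1999 FPKM in TBI 1 to 5, against 0.156, 0.140, 0.123, 0.111 and 0.131 FPKM in sham 1 to 5. TBI 2, TBI 4, TBI 5 and TBI 1 lay above all sham libraries, and TBI 3 lay below all of them. With a mean over the 10 libraries under 0.5 FPKM, it did not enter the test. Without that filter its log2 difference was 0.10 (SE 0.067) with an adjusted p of 0.974 in limma's test, and at this level 0.5 added to each value compresses any fold. Dnmt3a was 19.3 to 49.5 times as high as Dnmt3b in the individual libraries.

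**Figure D1:**
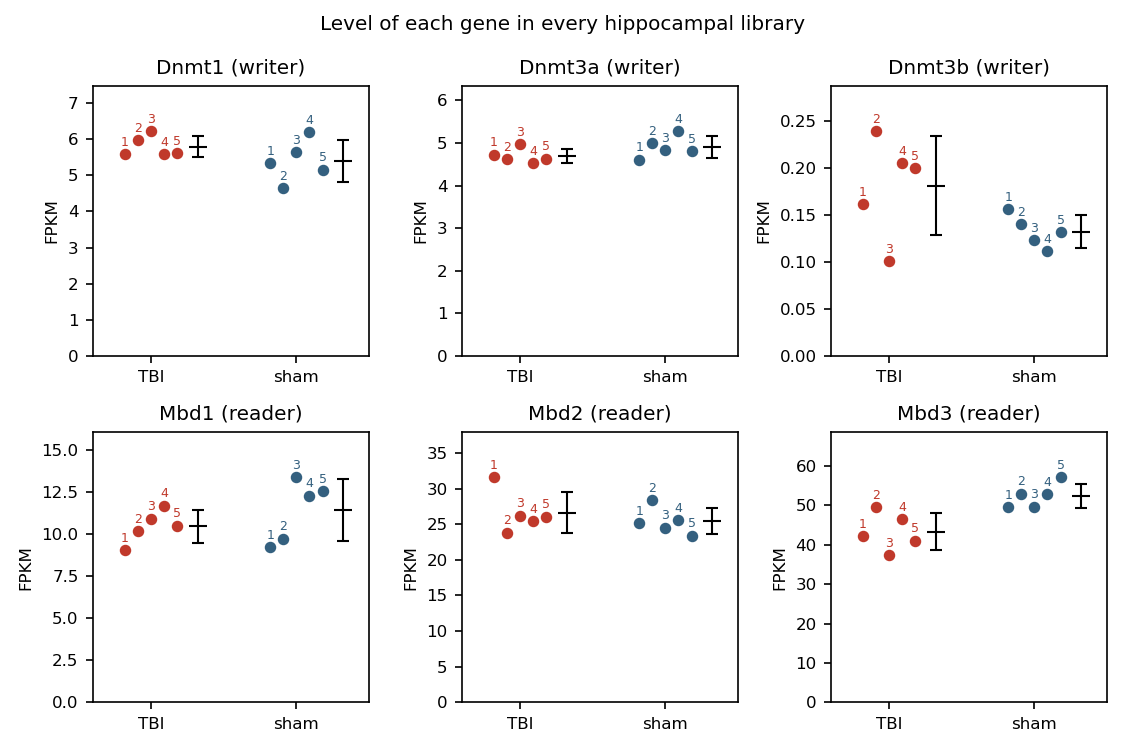
FPKM of the 6 members (vertical axes, linear, from 0) in TBI and sham libraries. Points are libraries with their number, and the bar beside each group is the mean with its SD (n = 5). In the Mbd3 panel the TBI libraries lie at 37.4 to 49.4 FPKM, below the sham libraries at 49.5 to 57.0 FPKM, and in the other panels the groups overlap.

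Among the readers, Mbd3 was lower in every injured library than in any sham library, while Mbd1 and Mbd2 overlapped between the groups. Mbd3 was at 42.1, 49.4, 37.4, 46.5 and 41.0 FPKM in TBI 1 to 5, against 49.5, 52.9, 49.6, 52.8 and 57.0 FPKM in sham 1 to 5. The highest TBI library, TBI 2, and the lowest sham library, sham 1, were only 0.0560 FPKM apart. Mbd3 averaged 43.3 ± 4.74 FPKM in TBI and 52.4 ± 3.09 FPKM in sham (SD, n = 5 each), so its mean in TBI was 82.6% of that in sham. The log2 difference was -0.28 (SE 0.085, 95% interval -0.47 to -0.089), and it ranked 50 among the rows by p. After Benjamini-Hochberg adjustment over the 16194 rows limma's p was 0.983, so the difference did not pass. An exact two-sided permutation test of Mbd3 alone gave p = 0.00794, the smallest that 5 against 5 libraries can give. Any row whose groups do not overlap gets this p, so it repeats the separation and adds no support.

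The same fit called 0 rows in the whole table after adjustment, higher or lower (0.0% of rows in each direction), and no adjusted p lay below 0.698. Limma listed 472 rows, 2.91% of those tested, at an unadjusted p under 0.05, with 1.41% higher and 1.51% lower in TBI. The exact permutation test of each row called 0 after adjustment and listed 568 rows at an unadjusted p under 0.05. Of the 5 members tested, 1 had an unadjusted p under 0.05, and that was Mbd3. The groups did not overlap for 1 of the 5 members, against 0.482% of all rows tested (0.241% lower in TBI). With 5 members the share of members can take few values, and none of the 5 passed adjustment. The median log2 difference was -0.056 over the 5 members and 0.0013 over all rows, with 2 members higher and 3 lower in mean in TBI, against 50.4% and 49.6% of all rows.

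The tissue content of the libraries differed, and Mbd3 went with it in some libraries and not in others. TBI 2, the TBI library with the most Mbd3, was also the TBI library with the least Ttr, at 72.7 FPKM. The other 4 TBI libraries had 9079 to 32233 FPKM of Ttr. Sham 2 and sham 3, at 31400 and 9405 FPKM of Ttr, had 52.9 and 49.6 FPKM of Mbd3, above all 4 of them. The other sham libraries had less Ttr than sham 2 and sham 3. Among them sham 1, with the lowest sum of choroid plexus markers, at 36.0 FPKM, had the least Mbd3 in sham, at 49.5 FPKM. TBI 1, with the most Ttr, had 42.1 FPKM of Mbd3, above TBI 3 and TBI 5. High Ttr was more frequent in TBI than in sham. Choroid plexus content and injury therefore cannot be fully told apart here. With the choroid plexus score as a covariate the log2 difference of Mbd3 was -0.24, and with the meninges and matrix score it was -0.28. The unadjusted p in limma's test was 0.0291 and 0.0101 with these covariates, against 0.00798 without them. The endothelial marker Cldn5 was also apart between the groups, at 45.3 to 54.3 FPKM in TBI and 61.3 to 82.4 FPKM in sham, with an adjusted p of 0.983 in limma's test. Of the 5 endothelial markers 4 were lower in TBI in mean log2 value and 2 had an unadjusted p under 0.05 in limma's test, and their median log2 difference was -0.26. Their summed level was 95.6 FPKM in TBI 1 and 74.4 to 82.5 FPKM in the other TBI libraries, against 90.6 to 128 FPKM in sham, so the sums overlapped through TBI 1 alone. Median log2 differences were also lower in TBI for markers of hippocampal subfields (-0.21, 3 of 3 tested lower), neurons (-0.059, 4 of 5) and astrocytes (-0.062, 4 of 5). The medians of the other marker lists were higher in TBI. The part of endothelial or other cell content in the Mbd3 difference was not tested. In bulk tissue, fewer cells of a type and less RNA per cell cannot be told apart.

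Mbd2 had 2 rows under its symbol, which were summed. The first, XLOC_010762, carried nearly all of the level, at 23.3 to 31.1 FPKM over the 10 libraries. The second, XLOC_011002, was at 0.440 FPKM or below and was listed at 0 in TBI 2 and TBI 3. Summed, Mbd2 was at 31.5, 23.8, 26.2, 25.5 and 26.0 FPKM in TBI 1 to 5, against 25.1, 28.3, 24.5, 25.6 and 23.4 FPKM in sham 1 to 5. TBI 1 stood above the other libraries and sham 2 came next. The means were 26.6 ± 2.91 FPKM in TBI and 25.4 ± 1.84 FPKM in sham (SD, n = 5 each), and their difference on the log2 scale was 0.063 (95% interval -0.13 to 0.25, SE 0.086) with an adjusted p of 0.983 in limma's test. TBI 1 and sham 2 were also the libraries with the most Ttr, at 32233 and 31400 FPKM, and TBI 1 had the highest meninges and matrix sum. Sham 4 came next in that sum, at 111 FPKM, and had 25.6 FPKM of Mbd2. The choroid plexus sums of TBI 4 and TBI 5 were 11964 and 17959 FPKM, with 25.5 and 26.0 FPKM of Mbd2. Those of sham 1 and sham 4 were 36.0 and 57.7 FPKM, with 25.1 and 25.6 FPKM of Mbd2. The difference of Mbd2 was 0.00064 without TBI 1 and 0.0014 with the choroid plexus score as a covariate, and with libraries 2 to 5 of each group it was -0.0023. Whether tissue content is a source of the Mbd2 values was not tested.

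**Figure D2:**
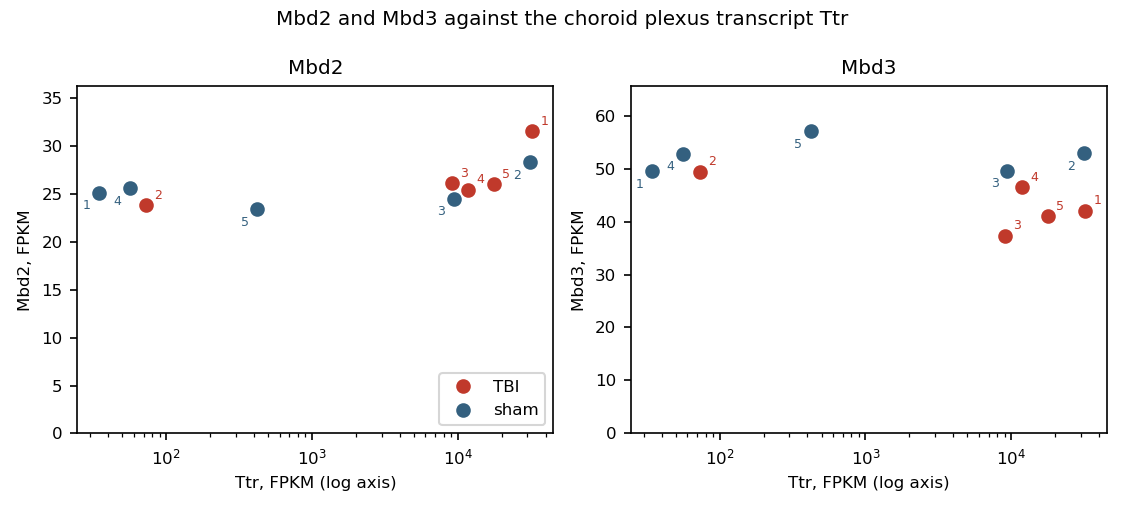
FPKM of Mbd2 (left) and Mbd3 (right) on linear vertical axes against FPKM of the choroid plexus transcript Ttr on a log axis, 1 point per library with its number, TBI in red and sham in blue. TBI 1 and sham 2, with the most Ttr, have the most Mbd2, at 31.5 and 28.3 FPKM. The 4 TBI libraries with high Ttr have less Mbd3 than the sham libraries with high Ttr.

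Mbd1, which binds methylated CpG and represses transcription, was at 9.06, 10.2, 10.9, 11.7 and 10.5 FPKM in TBI 1 to 5, against 9.23, 9.73, 13.4, 12.3 and 12.5 FPKM in sham 1 to 5. Sham 1 and sham 2 lay among the lowest TBI libraries and the other 3 sham libraries above all TBI libraries. The means were 10.5 ± 0.971 FPKM in TBI and 11.4 ± 1.84 FPKM in sham (SD, n = 5 each), and their log2 difference was -0.11 (95% interval -0.37 to 0.15, SE 0.12) with an adjusted p of 0.983 in limma's test. Summed over the 3 readers, levels were 74.5 to 83.6 FPKM in TBI and 83.9 to 93.0 FPKM in sham. Mbd3, its largest part, made up 50.2 to 59.3% of it in TBI and 56.7 to 61.4% in sham. The 3 writers summed to 10.3 to 11.3 FPKM in TBI and 9.78 to 11.6 FPKM in sham.

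The order of the members was the same in the means of both groups: Mbd3, Mbd2, Mbd1, Dnmt1, Dnmt3a and Dnmt3b, from high to low. Each neighbouring pair was compared within libraries by an exact two-sided sign-flip permutation test of the log2 difference over the 10 libraries. Mbd3 was 1.33 to 2.44 times Mbd2 and higher in 10 of 10 libraries (exact p = 0.00195, adjusted over the 5 pairs 0.00244). Mbd2 over Mbd1, Mbd1 over Dnmt1 and Dnmt3a over Dnmt3b gave the same exact p, the smallest that 10 libraries allow. Mbd2 was 1.83 to 3.48 times Mbd1, and Mbd1 was 1.62 to 2.43 times Dnmt1. Dnmt1 and Dnmt3a were closest, with Dnmt1 higher in 9 of 10 libraries and 1.17 times Dnmt3a on average (exact p = 0.00586, adjusted 0.00586). Sham 2 was the exception, with 4.65 FPKM of Dnmt1 and 4.997 FPKM of Dnmt3a. The pairs were taken from the order of the means of these same libraries. Each p concerns the direction of a difference over libraries. It is the smallest possible whenever all 10 libraries agree in direction, whatever the size or spread of the difference. An error of FPKM that is fixed for a gene, such as fragments shared with an overlapping gene, would recur in each library. Within a group, 5 libraries cannot give an exact p below 0.0625, so neither group alone could pass. In the sham libraries alone the mean log2 difference of Dnmt1 and Dnmt3a was 0.12 (SD 0.13), with Dnmt1 higher in 4 of 5 (exact p = 0.1875). In the TBI libraries alone that difference was 0.28 (SD 0.044), with Dnmt1 higher in 5 of 5 (exact p = 0.0625). This test did not compare the groups.

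Ratios between members within a library, looked at after the levels had been seen, set Dnmt1 apart from Dnmt3a by group. Dnmt1 over Dnmt3a was 1.184, 1.29, 1.25, 1.23 and 1.21 in TBI 1 to 5, against 1.156, 0.930, 1.168, 1.172 and 1.07 in sham 1 to 5. All TBI ratios lay above all sham ratios, although neither gene alone was apart. Mbd3 over Dnmt1 was 7.53, 8.28, 6.003, 8.34 and 7.32 in TBI 1 to 5, against 9.29, 11.4, 8.80, 8.54 and 11.1 in sham 1 to 5, again without overlap. Of the 10 ratios between the 5 members tested, these 2 did not overlap between the groups, against 0.534% of all 126285778 ratios between rows without a 0. That share of all ratios also lay below the share of 0.00794 of assignments that separate the groups fully. The 10 ratios share genes and libraries, and no p is given for them. Mbd3 over Mbd2, the ratio of the alternative NuRD subunits, was 1.33, 2.08, 1.43, 1.83 and 1.57 in TBI 1 to 5, against 1.97, 1.87, 2.02, 2.06 and 2.44 in sham 1 to 5. TBI 2 lay above all sham libraries except sham 5, so this ratio overlapped.

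**Figure D3:**
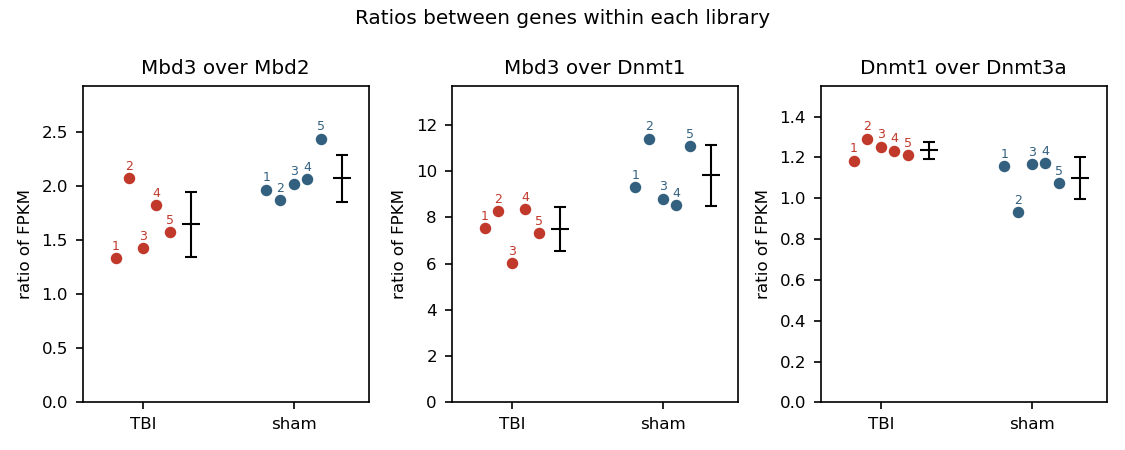
Ratio of FPKM within each library (vertical axes, linear, from 0) for Mbd3 over Mbd2, Mbd3 over Dnmt1 and Dnmt1 over Dnmt3a. Points are libraries with their number, and the bar beside each group is the mean with its SD (n = 5). For Mbd3 over Dnmt1 the TBI libraries lie at 6.003 to 8.34 and the sham libraries at 8.54 to 11.4.

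Whether the members varied together was examined across the 10 libraries. Of 15 pairs, 0 passed a two-sided permutation test of Pearson's r after Benjamini-Hochberg adjustment, and 1 had an unadjusted p under 0.05. That pair was Dnmt3a and Dnmt3b, with r = -0.78 (permutation p = 0.0081, adjusted 0.121) and Spearman's rho = -0.81 (permutation p = 0.00738, adjusted 0.111). Without the 2 libraries farthest from the median of Dnmt3a r was -0.76, and within the groups, after their means were removed, it was -0.70. With quantile normalization r was -0.59 (permutation p = 0.069, adjusted 0.347) and rho was -0.82. Dnmt3b was at 0.1004 to 0.239 FPKM, below the 0.5 FPKM filter, so every r with Dnmt3b rests on very low values. Mbd1 and Mbd2 came next with r = -0.61 and rho = -0.54 (permutation p = 0.0561 and 0.113, adjusted 0.421 and 0.571), and without the 2 farthest libraries r was -0.38. The highest positive r over all 10 libraries was that of Mbd1 and Mbd3, with r = 0.32 (permutation p = 0.356, adjusted 0.825) and rho = 0.33 (permutation p = 0.348, adjusted 0.571), and r was 0.19 without 2 libraries and 0.13 within the groups. By rho the highest was Dnmt3a and Mbd3 at 0.36 (permutation p = 0.313, adjusted 0.571), and within the groups the highest r was Dnmt3b and Mbd3 at 0.71, against -0.069 over all 10 libraries. These values come from libraries that share scaling and tissue content.

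For each member the gene with the most similar pattern over the 10 libraries was looked up among 10527 named genes with a mean of at least 1 FPKM, by Pearson's r of log2(FPKM + 0.5). With so many genes and 10 libraries, these values of r are descriptions. For Mbd3 it was Adcy2, an adenylyl cyclase, with r = 0.90 and rho = 0.87. Adcy2 was at 40.2 to 47.3 FPKM in TBI and 45.2 to 51.8 FPKM in sham. For Mbd2 it was RGD1303130, also named Glmp in the GRCr8 gene table and encoding a lysosomal membrane protein, with r = 0.98 and rho = 0.95. Mbd2 had 122 genes with r above 0.9, whereas Mbd3 had 0 and Dnmt1 had 2. For Mbd1 it was the histone demethylase Phf2 (r = 0.96, rho = 0.95), for Dnmt1 Plekha1 (r = 0.93, rho = 0.92), for Dnmt3a the peptide hormone precursor gene Pomc (r = 0.94, rho = 0.90) and for Dnmt3b Txndc12 (r = 0.93, rho = 0.89). Pomc was low, at 1.02 to 2.57 FPKM with a mean of 1.54 FPKM, and Dnmt3b itself was at 0.1004 to 0.239 FPKM.

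The wider machinery around these genes was described from lists of 59 genes, of which 51 had a row and 46 were tested. Limma's test called 0 of the 46 after adjustment in either direction, with a smallest adjusted p of 0.983. Unadjusted, 2 of the 46 (4.35%) had p under 0.05, beside 2.91% of all rows. Their median log2 difference was 0.033, with 27 higher and 19 lower in TBI by the mean of the log2 values, which is what such counts refer to in each list below. The groups did not separate for any of the 46.

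Of the 6 tested partners of the writers, 4 had a higher mean and 2 a lower mean in TBI. The 2 genes with an unadjusted p under 0.05 were both here. Pcna, the replication clamp that binds Dnmt1, was at 36.3, 35.9, 30.6, 33.2 and 32.9 FPKM in TBI 1 to 5, against 29.8, 29.98, 27.5, 32.1 and 29.9 FPKM in sham 1 to 5. Only sham 4 lay above the lowest TBI library, TBI 3. The log2 difference of Pcna was 0.17 (SE 0.071, 95% interval 0.017 to 0.33), with an adjusted p of 0.983 in limma's test. Cdca7, a partner of the chromatin remodeler Hells, was at 0.962 ± 0.101 FPKM in TBI and 0.661 ± 0.181 FPKM in sham (SD, n = 5 each), with a log2 difference of 0.34 (SE 0.14) and an adjusted p of 0.983 in limma's test. Dnmt3l, a catalytically inactive relative that assists Dnmt3a, was listed at 0 in all 10 libraries. The summed cycling-cell markers, given above, were above all sham libraries in 4 of 5 TBI libraries, and their part in the Pcna values was not tested.

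Of the other methyl-CpG readers 3 were tested, 1 with a higher and 2 with a lower mean in TBI. Mbd6, a relative with the same domain, was at 19.2 FPKM in TBI 1 and 4.99 to 9.04 FPKM in the other TBI libraries, against 9.63 FPKM in sham 2 and 5.10 to 6.73 FPKM in the other sham libraries. As with Mbd2, TBI 1 and sham 2 were highest, and these were the libraries with the most Ttr.

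Of the 11 genes of active demethylation and base repair tested, 3 were higher and 8 lower in mean log2 value, with a median difference of -0.017. Gadd45a, linked to demethylation in activated cells, was at 7.46 ± 1.93 FPKM in TBI and 5.65 ± 0.746 FPKM in sham, and its relative Gadd45g at 12.9 ± 6.11 and 10.01 ± 2.60 FPKM (SD, n = 5 each). Of 7 cofactors and partners of the TET enzymes, 5 were higher and 2 lower in mean. Idh1, which makes the cosubstrate 2-oxoglutarate, was at 24.8 ± 3.21 FPKM in TBI and 22.6 ± 2.67 FPKM in sham, and the TET-binding enzyme Ogt at 40.8 ± 4.67 and 37.7 ± 3.50 FPKM. The 3 CXXC readers of unmethylated CpG were all higher in mean by small amounts, with Kdm2a at 16.6 ± 1.17 and 16.0 ± 0.592 FPKM and Cxxc1 at 13.5 ± 1.03 and 13.3 ± 1.39 FPKM. Each adjusted p in these lists was 0.983 or above in limma's test.

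The other subunits of NuRD, the complex that holds Mbd2 or Mbd3, were split in direction: of 8 tested, 4 were higher and 4 lower in mean, and their median log2 difference was -0.0036. Chd5, the remodeler subunit made in neurons, was at 17.8 ± 3.57 FPKM in TBI and 21.1 ± 3.84 FPKM in sham, and Gatad2a, which bridges the remodeler to the MBD subunit, at 15.7 ± 1.30 and 17.1 ± 1.62 FPKM (SD, n = 5 each). Both had an adjusted p of 0.983 in limma's test. Of the 8 genes tested of the methyl donor cycle, which supplies S-adenosylmethionine, 7 were higher and 1 lower in mean. The serine hydroxymethyltransferase Shmt1 was at 1.93 ± 0.437 FPKM in TBI and 1.56 ± 0.197 FPKM in sham, and Ahcy, which clears the product of methylation, at 24.4 ± 2.46 and 21.8 ± 3.43 FPKM.

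**Figure D4:**
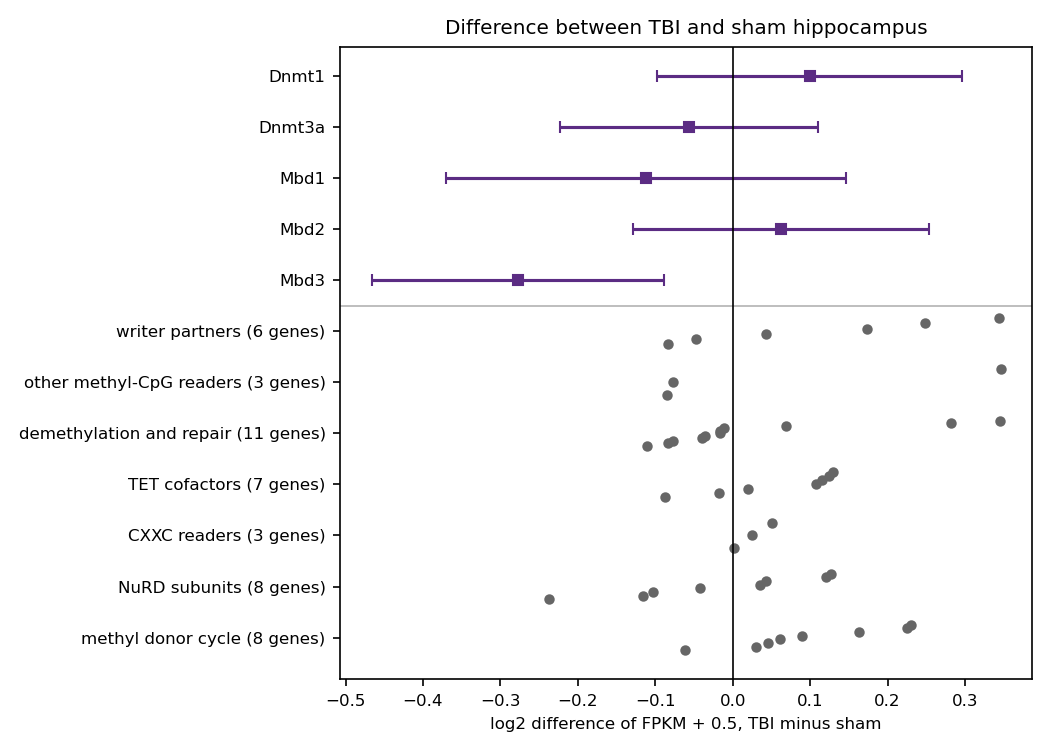
Log2 difference of FPKM + 0.5, TBI minus sham (horizontal axis), for the 5 members tested with limma's 95% interval (squares and bars), and for each tested gene of the 7 wider lists (points, 1 per gene, spread vertically for sight only). The interval of Mbd3 lies below 0, from -0.47 to -0.089, and those of the other members span 0. None passed adjustment over all rows.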

How the data were processed

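Poly-A RNA of 10 rat hippocampus libraries was sequenced by HiSeq, as the labels' protocols state. The deposited table gives FPKM for 25269 loci, 1 column per library; near-equal 75th percentiles beside unequal sums show scaling between libraries. The rn5 build and the tools Cufflinks, Cuffdiff, TopHat, TopHat2, Bowtie and Bowtie2 are named per the submitters' processing notes, with no roles or versions; annotation is not given in the sources used here. No locus of a member carried a status other than OK. Use of strand is not given in the sources used here, so overlapping or antisense genes may share fragments, and a value of exactly 0 can be a failed estimate. Whole fragments were not recovered and depth is unknown, so no count test was run.

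Loci sharing a symbol were summed (23824 rows), and rows with a mean of at least 0.5 FPKM (16194) were tested with limma 3.58.1 in R 4.3.3 (two-sided, eBayes, trend on the mean), using log2(FPKM + 0.5), Benjamini-Hochberg adjusted at 0.05. This scale understates changes of low genes. The procedure was tested on simulated data. Symbols of members and lists were matched exactly, ignoring case. Members and lists were chosen with earlier results of these data known. Named besides the members are the 2 genes with the smallest p in each wider list, the top marker of each cell type and the gene most alike each member; 1 gene that this rule names is not reported here; Dnmt3l and Col1a2 were named after their values were seen. Scores used as covariates are the mean of centred log2 values of a marker list. Permutation tests used all assignments, or 100000 resamples for correlations. Alternatives covered pseudocount, filter, scaling, variance model, array weights, replicate block, tissue scores, loci not summed and libraries left out.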

Additional observations from a re-analysis of the deposited data

How the results depend on the processing

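Each of the 5 members tested was refitted under 24 alternatives, and no member passed adjustment in any of them. Dnmt1, Dnmt3a, Mbd1 and Mbd3 kept their direction in all 24. Alternatives that changed only the filter, the variance model, the replicate block or the test could not change these differences. Nor could leaving loci unsummed, as each of these genes had a single locus. As the groups of Mbd3 did not overlap, leaving libraries out could not reverse its direction either. The log2 difference of Mbd3 stayed between -0.33 and -0.23, with unadjusted p from 0.00302 to 0.0291 and adjusted p from 0.592 to 1.00. That of Dnmt1 ran from 0.052 to 0.15, of Dnmt3a from -0.10 to -0.032 and of Mbd1 from -0.18 to -0.054. Mbd2 ran from -0.0023 to 0.10 and turned negative, at -0.0023, with libraries 2 to 5 of each group only; the cause was not tested. The number of rows called in the whole table was 0 in every setting except without sham 4, so that it ran from 0 to 2 when 1 library was left out, with neither called row a member; of the wider list genes 0 were called in every setting. Whether the numbers in the titles pair the libraries is not known. Deviations of same-numbered libraries from their group means correlated at -0.38 to 0.31, and were not set against those of differently numbered libraries. The replicate block gave 0 calls. Its difference for Mbd3, -0.28, had to equal the one without it, because each number has 1 library per group. Only its p could change, and in limma's test it was 0.0111 unadjusted, against 0.00798 without the block. All 5 neighbouring pairs in the order of levels passed in every fit with at least 8 libraries. Within TBI libraries only or sham libraries only 0 passed; 5 libraries cannot give an exact p below 0.0625, and in sham Dnmt1 over Dnmt3a was at 0.1875, with 4 of 5 libraries in that direction. No pair of members passed the correlation test in any setting. Median differences over all rows lay between -0.016 and 0.016 across settings. The unknown depth limits Dnmt3b most, at 0.1004 to 0.239 FPKM.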
